A study of Mus musculus with 16 samples.

Results

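Cortical GABAergic interneurons are the inhibitory neurons of the cortex. They are born in the ganglionic eminences of the ventral forebrain, under the control of homeobox transcription factors of the Dlx family, and migrate tangentially into the cortex before birth. Cells of the medial eminence switch on Lhx6, a LIM homeobox factor needed for the interneurons that later carry somatostatin or parvalbumin. Maturing cells make GABA from glutamate with the decarboxylases encoded by Gad1 and Gad2, and load it into vesicles with the transporter encoded by Slc32a1. The genes followed here are 4 Dlx factors (Dlx1, Dlx2, Dlx5 and Dlx6), Lhx6, the 3 genes of GABA synthesis and loading (Gad1, Gad2 and Slc32a1) and 2 neuropeptide genes (Sst and Npy). They were chosen by name as markers of interneuron identity and make up 10 of the 55359 gene IDs counted.

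The data are 16 RNA-seq libraries of total RNA from the cortex of mouse fetuses at gestational day 16. They came from male and female fetuses of 4 kinds of parentage: neither parent exposed (control), exposure of the father (paternal), of the mother (maternal) or of both (dual), with alcohol as the exposure per the title of the study. There are 2 libraries per sex and exposure, or 4 per exposure. The sources used here do not give strain, genotype, dose or the age of the parents. The comparisons ask whether the exposure of either or both parents was accompanied by a different level of interneuron RNA in the fetal cortex, and whether male and female fetuses differed in this. The labels do not state whether the replicates of a group were separate fetuses or litters, so the p-values cover only the spread among the libraries at hand, some of which may be technical.

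None of the 10 genes passed the test against control for paternal, maternal or dual exposure when the sexes were averaged. Split by sex, a single member passed, Slc32a1, which fell by 21.2% after dual exposure in females (95% interval of the change -31.0 to -10.1%), where 15% of all genes passed and 5.64% of all genes were called lower. That call was lost among protein-coding genes alone and when either dual female library was left out. It was also lost with a covariate for library composition. That covariate was highest in both dual female libraries and can hardly be separated from the group, so the fit with it cannot test the call. Dlx1 and Dlx2 were correlated over the 16 libraries, and 1 female control library held the extreme of 5 members. The share of all genes with their extreme in that library was not counted.

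Library depth and composition bear on these values. Summed counts ran from 15336566 to 19966696 in male libraries and from 26134287 to 35218456 in female libraries, so sex and depth cannot be told apart. The female controls stood apart from each other. Female control replicate 1 held 17.7 CPM (counts scaled to library size by the trimmed mean of M values, TMM) of the collagen gene Col1a1 against 48.9 to 155 in the other 15 libraries, and female control replicate 2 held 68.7 CPM of the thalamic factor Tcf7l2 against 19.3 to 36.7 elsewhere. The 2 female dual libraries carried 0.872% and 0.86% of their counts on sense-intronic genes and on genes of the annotation class TEC, transcripts without experimental proof,, against 0.28 to 0.534% in the other 14. They also held 5672 to 5847 CPM of the nuclear RNA Malat1, against 2704 to 5042 CPM in the other 14. Gene IDs with no matched symbol took 1.73 to 17.8% of the counts, with the highest share in male dual replicate 2. The cortical excitatory marker Neurod6 was present at 325 to 450 CPM in every library. Striatal and ventral forebrain markers were present too, with Drd1 at 9.57 to 25.2 CPM, Nkx2-1 at 13 to 27.8 CPM and Foxp2, which deep-layer cortical and thalamic neurons also express, at 83.4 to 136 CPM. In bulk tissue, fewer cells of a type and less RNA per cell cannot be told apart, and cortical interneurons cannot be told apart from neighbouring GABAergic cells that share these genes.

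All members were well counted. Across the libraries the counts per member ran from 242 for Npy to 9317 for Dlx1, and all 10 passed the filter on low counts. Per kilobase of exon (RPKM), Sst stood first with 76.1 ± 8.13 (SD, n = 16 libraries) and Dlx6 last with 8.97 ± 1.12. The length of a gene joins all its annotated exons, so the order and the ratios between genes depend on that choice. Npy followed Sst with 42.9 ± 8.62 RPKM, then came Dlx1 with 38.4 ± 4.67 and Dlx2 with 26.6 ± 5.06. Gad2 had 25.8 ± 2.21 RPKM, Dlx5 20.2 ± 2.18, Lhx6 19.5 ± 1.34, Gad1 16.4 ± 1.22 and Slc32a1 13.7 ± 1.16. Neighbours in this order overlapped in their ranges over the 16 libraries, except Sst and Npy at the top and Slc32a1 and Dlx6 at the bottom.

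**Figure D1:**
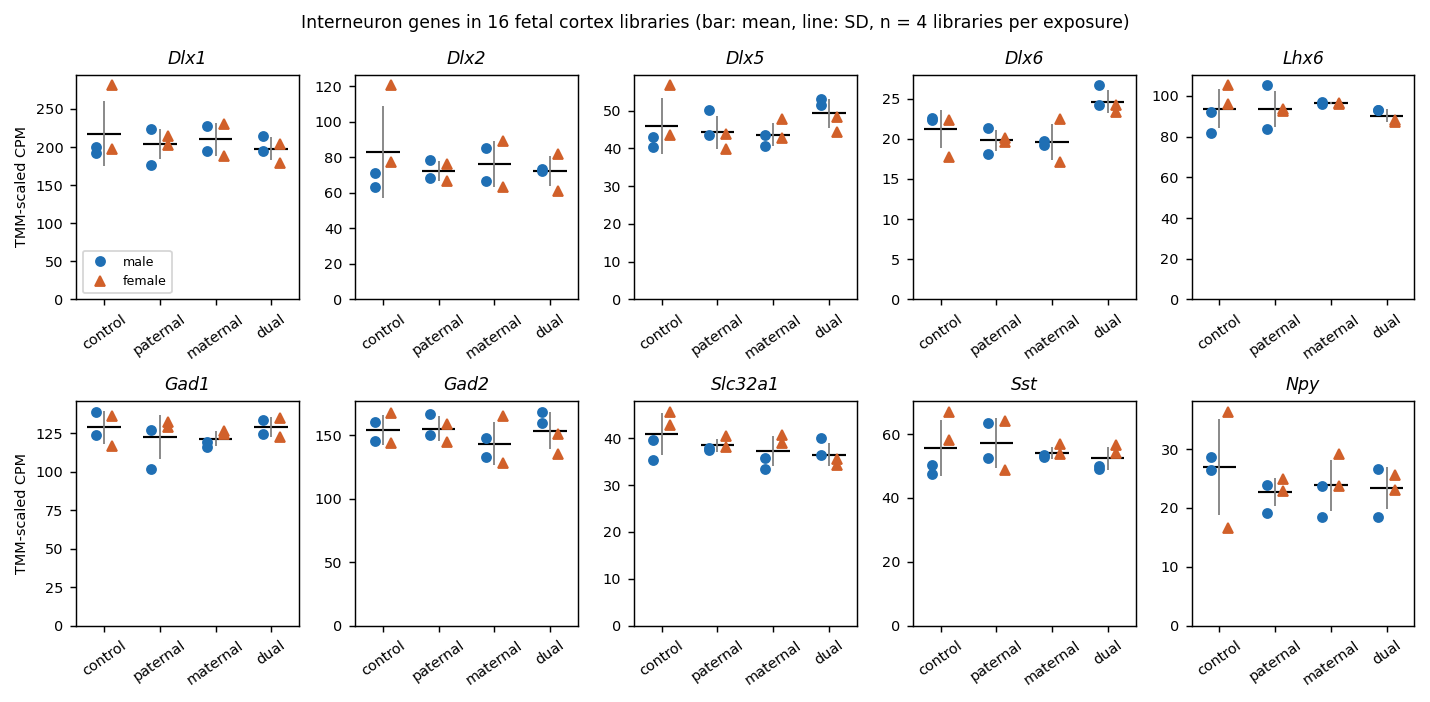
Level of each member (TMM-scaled CPM, each panel with its own axis from 0) in the 16 libraries, by exposure group, with males and females in different colours, horizontal bars for the mean of each exposure (n = 4) and vertical lines for its SD. Dual and control libraries overlapped for 9 members, and for Dlx6 the 4 dual libraries sat between 23.4 and 26.7 CPM, above the 4 controls.

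Dlx1 and Dlx2 are neighbouring genes that act early in the eminences and are needed for interneurons to leave them. Dlx1 measured 200 and 192 CPM in male controls and 281 and 197 CPM in female controls. It measured 177 and 223 CPM in paternal males, 202 and 214 in paternal females, 227 and 194 in maternal males and 230.1 and 188 in maternal females. In the dual group Dlx1 measured 195 and 214 CPM in males and 204 and 179 CPM in females. A single library, female control replicate 1, was far above the rest, and the other 15 lay between 177 CPM in a paternal male and 230.1 CPM in a maternal female. Averaged over the sexes, the log2 fold change of Dlx1 was -0.09 ± 0.10 (SE) for paternal, -0.04 ± 0.10 for maternal and -0.13 ± 0.10 for dual exposure, with edgeR adjusted p-values of 0.851, 0.998 and 0.513.

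Dlx2 repeated this layout at a lower level. It measured 71.1 and 63.2 CPM in male controls, and 121 and 77.5 CPM in female controls. The 12 exposed libraries lay between 61.2 and 89.3 CPM, with the lowest in female dual replicate 2 and the highest in female maternal replicate 1. The log2 fold changes were -0.17 ± 0.14, -0.10 ± 0.13 and -0.18 ± 0.14 for paternal, maternal and dual exposure, and none passed (edgeR adjusted p = 0.759, 0.998 and 0.513). The 95% interval for dual exposure ran from -27.4% to 7.96%. Per kilobase, Dlx1 exceeded Dlx2 in all 16 libraries, with a ratio of 1.46 ± 0.11 (SD, range 1.23 to 1.61).

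The promoter of Dlx2 is shown because its RNA followed that of Dlx1 more closely than any other member followed another, and the promoters of Npy and Slc32a1 because Npy ran against Dlx1 and Slc32a1 held the call in dual females. The sequences are RefSeq's on GRCm38.p6, 250 bases that end just before the RefSeq start of transcription, written 5′ to 3′ on the gene's own strand. Capitals mark the E-box CACGTG. They also mark the box CCAAT, and each was searched on both strands, so that it can stand reversed and complemented.
Dlx2, chr2:71546755-71547004, minus strand: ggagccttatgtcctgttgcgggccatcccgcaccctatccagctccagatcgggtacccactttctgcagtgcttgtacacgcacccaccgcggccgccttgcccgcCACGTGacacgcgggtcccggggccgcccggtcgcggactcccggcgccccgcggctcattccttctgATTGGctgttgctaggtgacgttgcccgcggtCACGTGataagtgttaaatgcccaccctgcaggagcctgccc
Npy, chr6:49822460-49822709, plus strand: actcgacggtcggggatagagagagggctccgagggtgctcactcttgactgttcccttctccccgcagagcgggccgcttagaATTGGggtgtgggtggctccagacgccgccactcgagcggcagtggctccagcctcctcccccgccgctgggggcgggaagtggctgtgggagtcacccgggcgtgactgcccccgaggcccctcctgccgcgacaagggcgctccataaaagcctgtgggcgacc
Slc32a1, chr2:158610508-158610757, plus strand: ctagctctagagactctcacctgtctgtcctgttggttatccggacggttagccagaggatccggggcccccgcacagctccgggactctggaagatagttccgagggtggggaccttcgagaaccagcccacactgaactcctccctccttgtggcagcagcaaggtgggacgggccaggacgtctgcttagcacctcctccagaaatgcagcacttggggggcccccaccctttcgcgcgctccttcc
Of the 10 members, 8 had an entry among the 32851 windows searched, and Dlx5 and Dlx6 had none. The Dlx2 window held 2 matches to CACGTG, starting 142 and 42 bases before the start, and 6.02% of all windows held at least 1. CCAAT was found in 33.85% of all windows. The homeodomain core TAATTA, present in 4.84% of all windows, was in no window of the 8 members with an entry. Among these, TATAAA (12.37% of windows) was matched once, in Gad1. These matches describe letters and not binding.

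Dlx5 and Dlx6, another neighbouring pair, are switched on later than Dlx1 and Dlx2 as precursors leave the progenitor zones. Dlx5 measured 43.1 and 40.3 CPM in male controls and 56.7 and 43.4 CPM in female controls, against 51.4 and 53.1 in dual males and 48.2 and 44.2 in dual females. Both dual male libraries were thus above both male controls, while the females overlapped. In males 4 of 10 members had this layout. Its share over all genes was not counted, so that count cannot be read as a result about the members. Its log2 fold change for dual exposure was 0.10 ± 0.08 over both sexes (edgeR adjusted p = 0.525), and 0.32 ± 0.12 in males, where it did not pass either (edgeR adjusted p = 0.942). In the paternal group Dlx5 averaged 44.2 ± 4.32 CPM (SD, n = 4) and in the maternal group 43.6 ± 2.98 CPM.

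Dlx6 was the only member whose dual libraries all lay on one side of the controls. It measured 22.4 and 22.6 CPM in male controls and 22.4 and 17.7 CPM in female controls. In the dual group it measured 26.7 and 24.2 CPM in males and 24.2 and 23.4 CPM in females, and the 8 single-exposure libraries lay between 17.1 and 22.5 CPM. The 4 dual libraries were therefore above the other 12, a layout found in 1.4% of all genes tested. Against control alone, 1 of 10 members lay wholly higher, beside 3.07% of all genes, and 0 of 10 wholly lower, beside 2.13%. The log2 fold change of Dlx6 for dual exposure was 0.21 ± 0.10, or 16% higher with a 95% interval of 0.195 to 34.3%, and did not pass (edgeR adjusted p = 0.248). For paternal and maternal exposure it was -0.10 ± 0.10 and -0.11 ± 0.10 (edgeR adjusted p = 0.823 and 0.998).

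Reads from Dlx6 and from Dlx6os2, a transcript of class TEC on the opposite strand, cannot be told apart where they overlap, because the strand setting of the counting is not given. Dlx6os2 itself held 3.39 to 5.44 CPM in dual libraries and 1.85 to 3.95 CPM in controls, and reached 22.5% of the Dlx6 level at most. With the share of TEC and sense-intronic counts as a covariate the dual value of Dlx6 was -0.03. That share was highest in both dual female libraries, so this fit can hardly separate it from dual exposure. The part of overlapping reads in the Dlx6 layout was not tested. Dlx1as, antisense to Dlx1, reached 8.73% of the Dlx1 level, and Gm14205, antisense to Slc32a1, reached 0.904%.

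**Figure D2:**
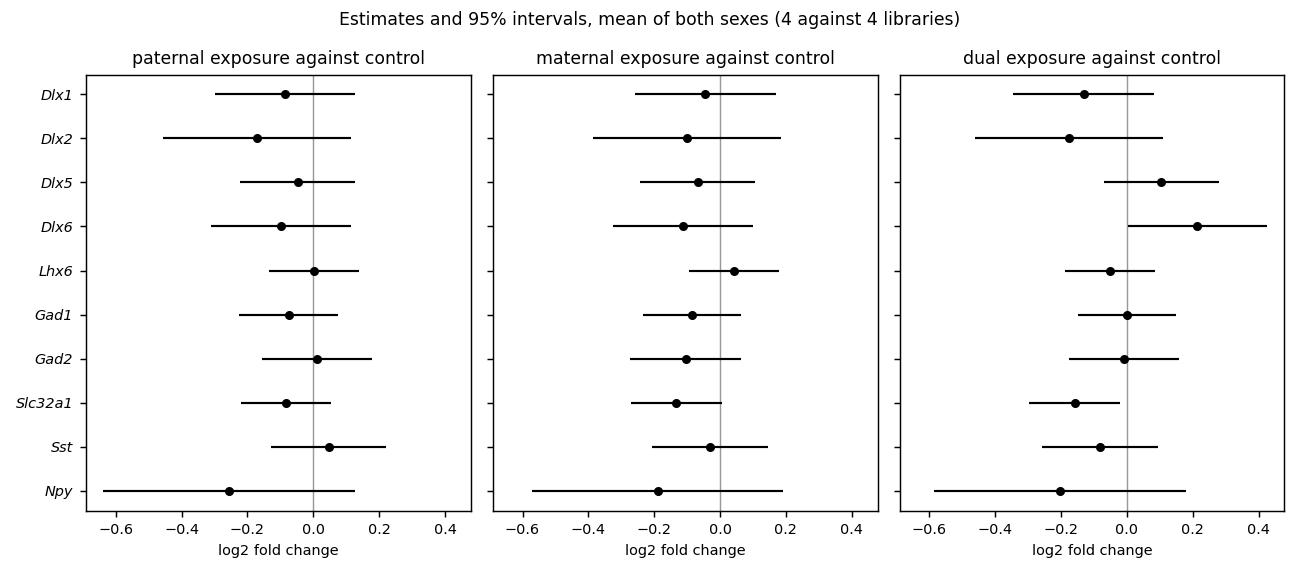
Log2 fold change (x axis) of the 10 members for each exposure against control, as the mean of both sexes, with 95% intervals as bars. Most intervals cross 0; those of Dlx6 (0.21) and Slc32a1 (-0.16) after dual exposure do not, and neither passed after adjustment over all genes.

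Lhx6 acts downstream of the eminence factor Nkx2-1 and is kept on in migrating and settled interneurons. It averaged 93.8 ± 9.71 CPM in controls, 93.7 ± 8.82 in paternal, 96.5 ± 0.48 in maternal and 90.3 ± 3.15 in dual libraries (SD, n = 4 each). The 16 libraries lay between 81.9 and 105 CPM, with the lowest in male control replicate 2 and the highest in female control replicate 1. Its 95% intervals ran from -8.91% to 10.1% for paternal, -6.28% to 13.3% for maternal and -12.3% to 6.11% for dual exposure.

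Gad1 encodes the decarboxylase isoform that supplies most of the cell's GABA, and Gad2 the isoform associated with synaptic vesicles. Gad1 averaged 129 ± 10.7 CPM in controls, 123 ± 14.1 in paternal, 122 ± 4.65 in maternal and 129 ± 6.39 in dual libraries (SD, n = 4 each). The lowest of the 16 was male paternal replicate 1 with 102 CPM, and the other 3 paternal libraries held 127 to 133 CPM. Gad2 averaged 154 ± 11.7 CPM in controls, 156 ± 9.62 in paternal, 144 ± 16.9 in maternal and 154 ± 14.3 in dual libraries. For dual exposure the 95% interval of Gad1 ran from -9.88% to 10.9% and that of Gad2 from -11.5% to 11.6%. Per kilobase, Gad2 exceeded Gad1 in every library, with a ratio of 1.58 ± 0.20 (SD, n = 16, range 1.30 to 1.92). The ratio rests on joined exon lengths of 5876 bases for Gad2 and 7639 for Gad1. In CPM, Gad2 averaged 152 and Gad1 126 over the 16 libraries, and female dual replicate 2 held 135.2 and 135.3.

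Slc32a1 encodes the vesicular inhibitory amino acid transporter, which defines a neuron able to release GABA. It measured 35.4 and 39.7 CPM in male controls and 42.8 and 45.7 CPM in female controls. It measured 37.9 and 37.5 CPM in paternal males, 40.5 and 38.0 in paternal females, 33.4 and 35.9 in maternal males and 39.0 and 40.7 in maternal females. In the dual group Slc32a1 measured 40.0 and 36.4 CPM in males and 34.2 and 35.5 CPM in females. The female controls were the 2 highest libraries of the 16, the dual females were among the 4 lowest, and the male groups overlapped. Over both sexes the log2 fold change was -0.08 ± 0.06 for paternal, -0.13 ± 0.06 for maternal and -0.16 ± 0.07 for dual exposure, the last with the smallest adjusted p of any member in that comparison (edgeR, 0.187).

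In dual females Slc32a1 fell by 0.34 on the log2 scale (SE 0.09, edgeR adjusted p = 0.0171), and in dual males the difference was 0.03 ± 0.09 (edgeR adjusted p = 0.983). The male minus female difference was 0.37 ± 0.13 and did not pass (edgeR adjusted p = 0.119), so the sexes were not shown to differ. The call for females did not hold among protein-coding genes alone (-0.27, edgeR adjusted p = 0.0969) or with the TEC and sense-intronic share as a covariate (-0.75). That share was highest in both dual female libraries, so the fit with it can hardly separate share from group and cannot test the call. The call was also lost without female dual replicate 1 (-0.33) or replicate 2 (-0.37), where the remaining dual female library is assumed to vary like the other groups.

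Sst and Npy encode the neuropeptides somatostatin and neuropeptide Y, which mark interneurons mainly of medial eminence origin. The Sst start carries the cyclic AMP response element, the palindrome TGACGTCA that is the textbook example of a site for CREB, and it is shown for that reason. The 30 bases are RefSeq's on GRCm38.p6, 5′ to 3′ on the gene's strand, with the element in capitals.
Sst, chr16:23890874-23890903, minus strand: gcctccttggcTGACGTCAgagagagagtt
The element starts 48 bases before the RefSeq start, and 1.55% of all windows held it. Among the members with an entry it was in the Sst window alone.

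Sst averaged 55.8 ± 8.80 CPM in controls, 57.2 ± 7.78 in paternal, 54.2 ± 1.87 in maternal and 52.4 ± 3.6 in dual libraries (SD, n = 4 each). Its 95% interval for dual exposure ran from -16.4% to 6.79%. Npy was the most variable member. It measured 26.5 and 28.7 CPM in male controls, and 16.6 and 36.4 CPM in female controls, which were the lowest and the highest of all 16 libraries. The exposed libraries lay between 18.5 and 29.2 CPM, inside the range of the female controls. The log2 fold changes of Npy were -0.26 ± 0.18, -0.19 ± 0.18 and -0.20 ± 0.18 for paternal, maternal and dual exposure, and none passed (edgeR adjusted p = 0.723, 0.998 and 0.581). Without female control replicate 1 the values of Npy were -0.48 for paternal and -0.43 for dual exposure. Without female control replicate 2 they turned to 0.08 and 0.13. Each of these fits leaves a sole female control, so the values of Npy hang on which of the female controls is kept.

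Over both sexes, 0 of 10 members passed for paternal exposure (edgeR), where 0% of all 21543 genes tested passed. The members' median log2 fold change was -0.08, with 3 above 0 and 7 below, beside a median of -0.01 over all genes. For maternal exposure 0 of 10 passed (0% of all genes), with a median of -0.09, 1 member above 0 and 9 below, beside a median of -0.0032 over all genes. For dual exposure 0 of 10 passed, while 3.36% of all genes did, and the median was -0.07 with 2 above 0 and 8 below, beside 0.00050 over all genes. DESeq2 also called 0 of 10 in each. At an unadjusted edgeR p under 0.05 the counts were 0, 0 and 2 of 10 (Dlx6 and Slc32a1 after dual exposure), beside 8.45%, 3.79% and 19.7% of all genes. The 3 comparisons share their 4 control libraries, so their directions are not independent of each other.

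Split by sex, the signs of the members' values were mostly negative in females and mixed in males. In females, log2 fold changes were below 0 for 9 of 10 members after paternal, 9 after maternal and 8 after dual exposure, with medians of -0.15, -0.12 and -0.15. In males they were above 0 for 7, 5 and 8 of 10, with medians of 0.04, -0.05 and 0.08. The percentage of all genes above 0 was 48.5, 49.1 and 51.9 in females and 47.2, 47.3 and 48.9 in males. All 3 female comparisons rest on the same 2 female controls, and the members' summed level was 988 CPM in female control replicate 1 against 768 to 893 CPM in the other 15 libraries.

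**Figure D3:**
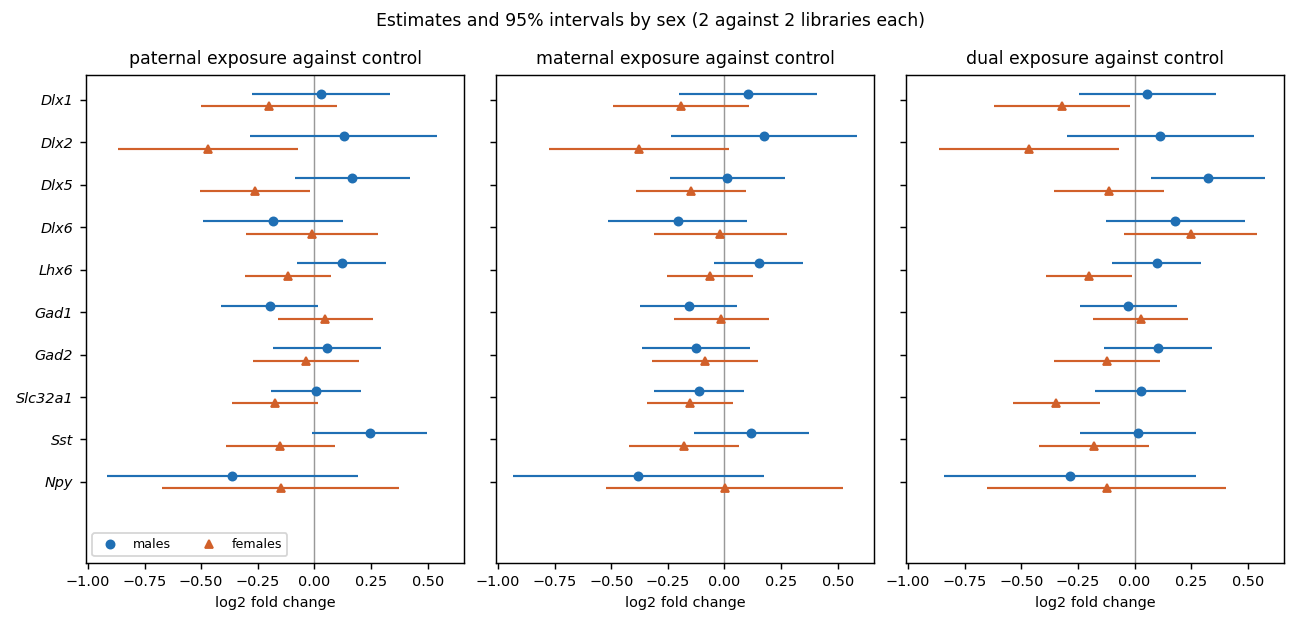
Log2 fold change (x axis) of the members for each exposure against control in males (circles) and in females (triangles), with 95% intervals. Dlx1, Dlx2, Dlx5 and Lhx6 lie to the right of 0 in males and to the left in females in all 3 panels, and the intervals of the sexes overlap for most members.

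By test, 0 of 10 members passed in males after any exposure (edgeR; 0% of all genes in each), and 0 of 10 in females after paternal or maternal exposure (0% each). In dual females 1 of 10 passed, Slc32a1, beside 15% of all genes (5.64% in its direction). At an unadjusted p under 0.05, 4 of 10 did there, namely Dlx1 (-0.32 ± 0.14), Dlx2 (-0.47 ± 0.19), Lhx6 (-0.20 ± 0.09) and Slc32a1, beside 29.9% of all genes. DESeq2 called the same single gene in dual females (-0.34, adjusted p = 0.0102) and 0 of 10 in the other 5 sex-specific comparisons. The unadjusted counts in those 5 were 0, 0 and 1 of 10 in paternal, maternal and dual males (10.4%, 7.92% and 4.86% of all genes) and 2 and 0 in paternal and maternal females (7.89% and 4.7%).

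The male minus female difference passed for 0 of 10 members after paternal (edgeR; 0% of all genes), maternal (0%) and dual exposure (3.5%), and DESeq2 called none in these either. Unadjusted counts were 3, 0 and 4 of 10, beside 10.8%, 9.86% and 20.4% of all genes. The largest differences were in Dlx2, at 0.60 ± 0.27, 0.55 ± 0.27 and 0.58 ± 0.27 (edgeR adjusted p = 0.449, 0.518 and 0.238). Leaving out female control replicate 2 makes the library of high Dlx1 and Dlx2 the sole female control. The difference after dual exposure was then 0.62 for Dlx1 and 0.88 for Dlx2. Averaged over exposures, 0 of 10 members differed between males and females (edgeR; 0.877% of all genes; unadjusted, 1 of 10 beside 11.4%), and the smallest adjusted p was 0.383, for Sst, at 52.3 ± 4.93 CPM in males and 57.4 ± 5.88 in females (SD, n = 8 each).

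Departure from additivity (the dual log2 fold change less the paternal and the maternal one) passed for 0 of 10 members (edgeR; 4.21% of all genes) and by DESeq2 for none. Dlx6 had the largest value, 0.42 ± 0.14 (edgeR adjusted p = 0.102), and was the single member under an unadjusted p of 0.05, beside 19.6% of all genes. Without female control replicate 2, which leaves a sole female control, the Dlx6 value was 0.49. The other members ranged from -0.10 to 0.24.

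Co-variation of the members was described over the 16 libraries. Of the 45 pairs of members, 28 had a positive Pearson correlation of log2 CPM, 9 were above 0.5, and the median was 0.15. A permutation test (100000 resamples, two-sided, Benjamini-Hochberg adjusted over 45 pairs) passed for 4 pairs. These are correlations over libraries that share groups, so they mix differences between exposures, sexes and replicates. The resamples shuffled all 16 libraries freely, without regard to group or sex, so the permutation p-values do not allow for the groups.

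The closest pair was Dlx1 and Dlx2 (Pearson r = 0.92, permutation p = 2e-05, adjusted 0.0009, and Spearman rho = 0.86, permutation p = 5e-05, adjusted 0.00225). Without the 2 libraries farthest from the median of Dlx1, r was 0.77. Within males r was 0.82 and within females 0.95 (n = 8 each). Dlx1 and Lhx6 gave r = 0.72 (permutation p = 0.00157, adjusted 0.0353) and rho = 0.68 (permutation p = 0.0047, adjusted 0.0705), with r = 0.62 without the 2 farthest libraries, 0.77 in males and 0.77 in females. Dlx2 and Dlx5 gave r = 0.68 (permutation p = 0.00323, adjusted 0.0363) and rho = 0.64 (permutation p = 0.00981, adjusted 0.0878), but r was 0.45 without the 2 farthest libraries, so the value over 16 depends on them. Within males r was 0.44 (rho = 0.76) and within females 0.89 (rho = 0.69).

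Npy ran the other way. With Dlx1 it gave r = -0.69 (permutation p = 0.00287, adjusted 0.0363) and rho = -0.72 (permutation p = 0.0025, adjusted 0.0562), with r = -0.62 without the 2 farthest libraries, -0.76 in males and -0.77 in females. Gad1 and Gad2 did not pass this test (r = -0.15, permutation p = 0.585, adjusted 0.730, and rho = -0.26, permutation p = 0.331, adjusted 0.621), with r = 0.20 in males and -0.58 in females. With group means removed, so that only differences between replicates remain, r was 0.93 for Dlx1 with Dlx2, 0.96 for Dlx1 with Dlx5, 0.93 for Dlx2 with Dlx5 and -0.92 for Dlx1 with Npy, and without the female controls 0.88, 0.94, 0.88 and -0.87. The deviations of the 2 libraries of a group mirror each other. These values thus rest on 1 difference for each of 8 groups, or fewer without the female controls.

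**Figure D4:**
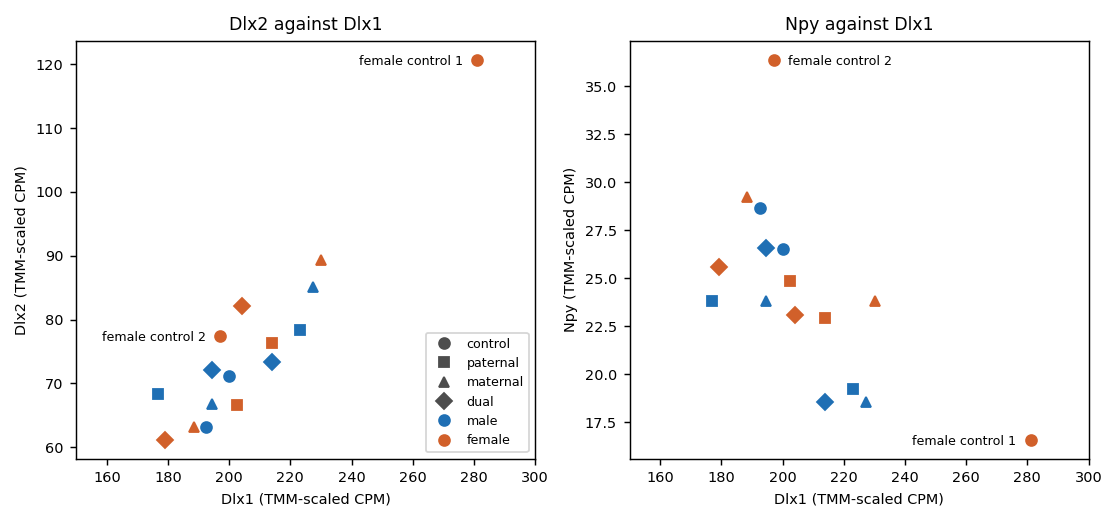
Dlx2 (left) and Npy (right) against Dlx1, all in TMM-scaled CPM, 1 point per library, with exposures by shape and sexes by colour. Dlx2 was high where Dlx1 was high and Npy where Dlx1 was low, and female control replicate 1 holds the extreme of both plots at 281 CPM of Dlx1.

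**Figure D5:**
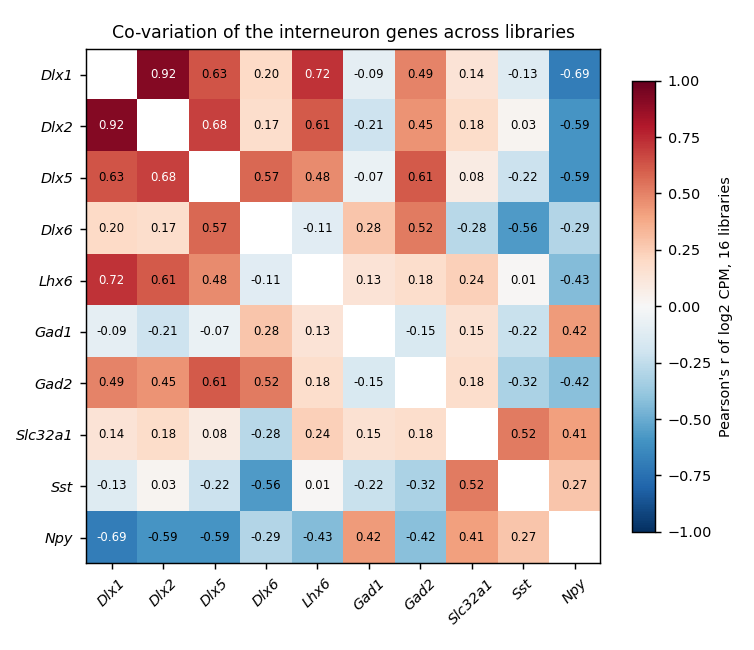
Pearson correlation of log2 CPM between members over the 16 libraries, from -1 to 1. Dlx1 and Dlx2 form the strongest pair (0.92), and Npy is negative with all 4 Dlx genes and Lhx6.

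Female control replicate 1, highest of all libraries in Dlx1, Dlx2, Dlx5 and Lhx6 and lowest in Npy, was also highest in eminence genes that are no members. It held 7.57 CPM of Gsx2, a progenitor factor of the lateral eminence, against 2.20 to 4.89 in the other 15 libraries. It held 27.8 CPM of Nkx2-1 against 13 to 24.9, and 20.4 CPM of Lhx8 against 9.45 to 19. Of the 10 genes of a list of eminence progenitor markers 6 were highest there, and their sum was 207 CPM against 138 to 162 elsewhere. Of 11 meningeal and fibroblast genes 10 were lowest there, with a sum of 92.7 CPM against 252 to 665. The library was highest in other lists too. It held 3529 CPM summed over 14 cortical excitatory genes against 2951 to 3517 elsewhere (7 of 14 highest there). Over 16 genes listed as other interneuron transcription factors it held 1895 CPM against 1647 to 1874 (8 of 16). That list shares Nkx2-1 with the eminence list. It also holds the noncoding RNA Dlx6os1, at 226 CPM in this library against 138 to 220 elsewhere. Other lists went another way, with 0 of 14 interneuron subtype markers, 0 of 6 genes of GABA uptake and breakdown and 0 of 12 thalamic genes highest there. Of 9 interneuron migration genes 1 was highest there, and of 15 striatal genes 2. The share of all genes that are highest or lowest in this library was not counted, so these counts cannot be set against it. The part of dissection or of cell composition in the members' levels in this library was not tested.

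Among all 12369 genes of sufficient level and with a named symbol, those whose profile over the 16 libraries was most like the mean standardised profile of the 10 members were Wipf2 (r = 0.91), Ntn1 (0.88), Zfp618 (0.85), Zscan2 (0.84), Zmiz1 (0.82), Sdhaf4 (0.82), Arid1a (0.81) and Meaf6 (0.80). Ntn1 encodes the guidance cue netrin 1 and Arid1a a subunit of the BAF chromatin remodeller. The values describe likeness over these libraries only. The members did not share a single profile, with a median r of 0.15 between them and -0.69 for Dlx1 with Npy. Their mean profile was highest in female control replicate 1 (1.03), followed by female control replicate 2 (0.52). The part of female control replicate 1 in this likeness was not tested.

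Other genes of the interneuron programme were counted by list. The 2 dual female libraries are those of the higher TEC share and Malat1 level, whose part in the calls in dual females was not tested. Of 6 genes of GABA uptake and breakdown 0 passed for any exposure over both sexes. Among the smallest p-values were those of Abat, the GABA transaminase (dual -0.15 ± 0.06, edgeR adjusted p = 0.161), and Slc6a13, a GABA transporter of the meninges (paternal 0.62 ± 0.31, edgeR adjusted p = 0.620). In dual females Abat fell by 0.31 (SE 0.08, edgeR adjusted p = 0.0154), the only one of the 6 to pass there (15% of all genes). The list's medians over both sexes were -0.05, -0.03 and -0.10 for paternal, maternal and dual exposure, beside -0.01, -0.0032 and 0.00050 over all genes.

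Of 16 genes listed as other interneuron transcription factors, among them the noncoding RNA Dlx6os1, 0 passed over both sexes. The smallest p-values were those of Prox1, a factor of caudal eminence interneurons that hippocampal granule cells also express (paternal -0.43 ± 0.08, edgeR adjusted p = 0.320; dual -0.26 ± 0.08, edgeR adjusted p = 0.0727), Maf (paternal 0.19 ± 0.06, edgeR adjusted p = 0.470) and Sp9 (maternal -0.21 ± 0.07, edgeR adjusted p = 0.998). Prox1 was the only one of the 16 to pass in dual females (-0.44 ± 0.11, edgeR adjusted p = 0.0103), beside 15% of all genes. The list's medians were -0.06, -0.03 and -0.0041. Of 9 genes of interneuron migration 0 passed over both sexes, and the smallest p-values were those of Nrg1 (dual 0.17 ± 0.07, edgeR adjusted p = 0.210), Cxcr4, the chemokine receptor that guides tangential migration (-0.21 ± 0.09, edgeR adjusted p = 0.212), and Nrg3 (0.16 ± 0.07, edgeR adjusted p = 0.237). In dual females 2 of the 9 passed (15% of all genes), Nrg1 and Nrg3, ligands of the interneuron receptor Erbb4, which rose by 0.38 and 0.39 (SE 0.10 each, edgeR adjusted p = 0.0159 and 0.0153). The medians of that list were 0.0023, -0.02 and -0.02.

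Markers of later interneuron subtypes were the next list. Pvalb and Vip, which mark subtypes that mature after birth, averaged 0.013 and 0.0070 CPM and were not tested. Of the 12 tested, 1 passed over both sexes, Reln, for dual exposure, where 3.36% of all genes passed. Reln, which Cajal-Retzius cells also express, fell there by 0.23 (SE 0.06, edgeR adjusted p = 0.0334). Calb2, which thalamic neurons also express (dual -0.45 ± 0.14, edgeR adjusted p = 0.0852), and Adarb2 (dual 0.30 ± 0.09, edgeR adjusted p = 0.0895) came next. In dual females 3 of the 12 passed, beside 15% of all genes, Reln (-0.41 ± 0.08) and Calb2 (-0.79 ± 0.19) lower and Adarb2 (0.55 ± 0.13) higher, with edgeR adjusted p-values of 0.00321, 0.0100 and 0.00987. The list's medians were -0.10, -0.06 and -0.21. Departure from additivity passed in these 4 lists for Prox1 (0.50), Nrg3 (0.39), Cxcl12 (-0.86) and Adarb2 (0.74), with edgeR adjusted p-values of 0.0150, 0.0362, 0.0336 and 0.00602, where 4.21% of all genes passed.

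Markers of cells beside the interneurons were counted in the same way. Of 10 eminence progenitor genes 0 passed over both sexes, with medians of -0.18, -0.12 and -0.07 and the smallest p-values in Hes6 (dual -0.26 ± 0.08), Olig2 (paternal -0.33 ± 0.11) and Otx2 (paternal -0.68 ± 0.26). Of 15 striatal neuron genes 0 passed, with medians of 0.06, -0.05 and 0.05 and the smallest p-values in Foxp2 (dual 0.19 ± 0.09) and Meis2 (dual 0.14 ± 0.06). Of 14 cortical excitatory genes 1 passed, Slc17a7, a vesicular glutamate transporter, which fell after dual exposure by 0.44 (SE 0.08, edgeR adjusted p = 0.00715), and the medians were 0.05, 0.05 and -0.0062. Neurod1 (paternal 0.24 ± 0.08) and Emx1 (maternal 0.19 ± 0.10) followed there. Of 11 thalamic and diencephalic genes tested 1 passed, Otp, which fell after dual exposure by 1.1 (SE 0.26, edgeR adjusted p = 0.0297), with Sim1 (maternal -0.84 ± 0.22) and Gbx2 (paternal -0.75 ± 0.22) next, and the medians were -0.37, -0.25 and -0.36. Of 11 meningeal genes 0 passed over both sexes, with medians of 0.61, 0.46 and -0.07 and the smallest p-values in Ogn (paternal 1.03 ± 0.23), Foxc1 (paternal 0.61 ± 0.16) and Aldh1a2 (paternal 1.11 ± 0.37). The calls of Slc17a7 and Otp stand beside 3.36% of all genes called for dual exposure over both sexes. With protein-coding genes alone 0 of all genes passed in that comparison. The calls of Reln, Slc17a7 and Otp were thus lost there along with every other call, which says nothing particular about these genes. None of these lists had a gene at 0 in every library. In dual females Hes6 (-0.44), Zfp503 (-0.49), Slc17a7 (-0.59), Lhx9 (-0.82) and Calb2 (-0.79) passed lower and Ogn (1.69) higher (edgeR), beside 15% of all genes. Departure from additivity passed for Dcn (-1.35), Ogn (-1.19) and Foxc1 (-0.93), beside 4.21% of all genes. The male minus female difference after dual exposure passed for Ogn (-2.02), beside 3.5%.

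Summed over each list, eminence progenitor genes held 141 to 207 CPM in controls and 140.4 to 162 CPM in dual libraries, striatal genes 917 to 1068 and 980.0 to 1105 CPM, and meningeal genes 92.7 to 533 and 252 to 413 CPM. The members themselves summed to 804 to 988 CPM in controls, 768 to 882 in paternal, 789 to 893 in maternal and 784 to 856 CPM in dual libraries. The part of neighbouring tissue in the members' values was not tested.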

How the data were processed

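The authors deposited raw counts per gene for each of 16 libraries. Per the submitters' processing notes, Trimmomatic, STAR and featureCounts were used with GRCm39 (mm39), and the sources used here give no versions, annotation release or strand setting. Symbols were matched by ID for 52083 of 55359 IDs with GENCODE M21 on GRCm38, which also gave gene classes and exon lengths for RPKM. Totals were 15336566 to 35218456 counts.

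In R 4.3.3, genes were kept by filterByExpr with 8 groups (minimum count 10, minimum total 15). After TMM scaling the test was edgeR 4.0.16 (glmQLFit, glmQLFTest, two-sided, Benjamini-Hochberg over 21543 genes, threshold 0.05) in 1 fit of 8 group means with 8 residual degrees of freedom. The steps were tested on simulated data. Sex-averaged comparisons weight males and females equally. Correlations used log2 CPM. Promoter windows were RefSeq's on GRCm38.p6.

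The members and lists were chosen with earlier results of these data known. Named genes were all members, the 3 of smallest p over the sex-averaged comparisons in each other list (some are not reported here), and the 8 most like the members. Genes named because they passed in dual females or for additivity, and Malat1, were chosen after their values were seen. No 2 replicates agreed within sampling noise (median squared difference 1.58 to 4.62 in units of counting error, where noise gives 0.455). Replicate numbers did not pair libraries.

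The alternatives tried were no filter, DESeq2 1.42.0, DESeq2 size factors within edgeR, protein-coding genes alone, the TEC and sense-intronic share as covariate, a replicate block, the compared exposures alone, an additive model, a fit without the female dual libraries and leaving out each library. The TEC and sense-intronic share was highest in both female dual libraries. The fit with it as covariate can hardly separate that share from dual exposure in females.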

Additional observations from a re-analysis of the deposited data

Results flagged for a closer look

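In 3 of 40 sets of 4 libraries (each member within each exposure), 1 library lay far from the other 3 by Dixon's criterion, which chance alone reaches in about 1 of 20 sets. Dlx1 in female control replicate 1 was at 281 CPM. Dlx6 in female control replicate 2 was at 17.7 CPM, below the other 3 controls. Gad1 in male paternal replicate 1 was at 102 CPM, below the other 3 paternal libraries. The causes were not tested.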

How the results depend on the processing

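The count of members called over both sexes was 0 for all 3 exposures under each setting other than leaving out a library (the fit without the female dual libraries was run for dual exposure alone). Without 1 library it was 0 to 1 for paternal and dual exposure, the 1 being Npy without female control replicate 1. With no filter 1 member (Dlx2) was called in paternal females, in maternal females and in the sex difference of each, 3 (Dlx1, Dlx2 and Slc32a1) in dual females and 2 (Dlx1 and Dlx2) in the dual sex difference. With protein-coding genes alone, or the TEC and sense-intronic share as a covariate, 0 were called in dual females (Slc32a1 -0.27 and -0.75). Leaving out a library gave 0 to 2 in paternal females, 0 to 3, 0 to 2 and 0 to 4 for the paternal, maternal and dual sex differences, 0 to 3 in dual females (Slc32a1 -0.39 to -0.31) and 0 to 1 for departure from additivity. The highest of these came without female control replicate 2, among them Dlx2 (-0.76) and Dlx5 (-0.45) in paternal females. Under these settings the share of all genes called was counted for the comparisons over both sexes alone. The counts of members within a sex, for the sex differences and for additivity therefore cannot be set against such a share. The causes were not tested.

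Over all genes, DESeq2 called 20 for paternal and 2 for maternal exposure, and no filter 321, 79 and 1345 for paternal, maternal and dual exposure. For dual exposure, protein-coding genes alone, the covariate and the fit without the female dual libraries called 0, the compared exposures alone 335 and the additive model 183. Leaving out a library gave 0 to 672, 0 to 115 and 142 to 2056, with the highest without female control replicate 1 for paternal and dual and without replicate 2 for maternal exposure.

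Some log2 fold changes over both sexes changed sign, among them the largest paternal (Npy) and dual (Dlx6) values. None of them was called in the 8-group edgeR fit of all 16 libraries. Gad1 after dual exposure was 0.0021 by DESeq2, 0.0030 with its size factors and 0.040 among protein-coding genes, where Gad2 was 0.031. Lhx6 after paternal exposure was -0.0053 with no filter, -0.0040 among protein-coding genes and -0.0030 in the additive model. With the covariate, Sst was -0.0029 (paternal) and 0.076 (dual) and Dlx6 -0.031 (dual). Without the female dual libraries, dual values were 0.059 for Dlx1, 0.12 for Dlx2, 0.10 for Lhx6, 0.11 for Gad2, 0.018 for Sst and 0.029 for Slc32a1. Leaving out a library gave for paternal exposure -0.20 to 0.053 (Dlx1), -0.31 to 0.0061 (Dlx2), -0.14 to 0.055 (Dlx5), -0.089 to 0.077 (Lhx6), -0.043 to 0.068 (Gad2), -0.059 to 0.14 (Sst) and -0.48 to 0.082 (Npy). For maternal exposure it gave -0.16 to 0.095 (Dlx1), -0.24 to 0.077 (Dlx2), -0.15 to 0.034 (Dlx5), -0.079 to 0.027 (Sst) and -0.42 to 0.15 (Npy). For dual exposure it gave -0.25 to 0.0069 (Dlx1), -0.32 to 0.00042 (Dlx2), -0.056 to 0.055 (Gad1), -0.066 to 0.047 (Gad2) and -0.43 to 0.13 (Npy).

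Replicate numbers did not pair libraries: over 28 pairs of groups the correlation of replicate differences was -0.14 to 0.18. The replicate block left every count of members called as it was (Slc32a1 in dual females -0.34, edgeR adjusted p = 0.0190). With 4 libraries per exposure, the 95% intervals over both sexes differed between members and reached as far as -35.7% (Npy, paternal) and 34.3% (Dlx6, dual).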
